A study of Mus musculus with 4 samples.

Results

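A set of 10 genes known for Sertoli cells was described in whole-testis RNA. It comprises the transcription factor genes Wt1, Gata4 and Nr5a1, the receptor gene Fshr, the androgen-regulated homeobox gene Rhox5, the marker Aard, and Clu, Ctsl, Trf and Cst12, which encode secreted or lysosomal proteins or their relatives. They were taken by gene symbol from the deposited count table, in which all 10 were present among 25265 genes, each on a single row. The study sequenced testes of C57BL/6 mice at postnatal day 56, in 2 control libraries and 2 libraries labelled Ythdf2-vKO. The series title describes a germ cell-specific mutation of Ythdf2, a gene for a cytoplasmic reader of N6-methyladenosine in RNA. The labels give neither the driver of the deletion nor the genotype of the controls, and do not say whether each library came from its own animal, so p-values measure only the spread between these libraries.

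Sertoli cells are the somatic cells of the seminiferous tubule. They hold the germ cells, form the blood-testis barrier and secrete carriers, proteases, protease inhibitors and growth factors into the tubule. Their identity is maintained by transcription factors that include WT1, GATA4 and NR5A1, and they respond to follicle-stimulating hormone and androgen.

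Total counts lay between 24862518 and 29561182 per library. Ythdf2 itself had 1193 and 1604 counts in control, against 1774 and 1807 in the libraries labelled Ythdf2-vKO. Its count was therefore not lower where the label states its loss (log2 fold change 0.35, edgeR adjusted p 0.238). The deleted part of the gene is not given in the sources used here. A count over the whole gene in whole testis thus cannot show whether that part was lost in germ cells. Every direction is given for the libraries labelled Ythdf2-vKO, shortened to vKO libraries. Testis germ cell genes were abundant in all 4 libraries, with the 10 listed elongating spermatid genes at a summed 12090 to 15503 CPM (counts per 1000000 counts of a library, after scaling by the trimmed mean of M values). The 10 Sertoli genes together took 0.105% and 0.124% of the counts in control, against 0.168% and 0.148% in the vKO libraries. In bulk tissue, a change in the number of Sertoli cells and a change in RNA per Sertoli cell cannot be told apart.

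The levels per length spanned about 3 orders of magnitude. As RPKM (CPM per kilobase of annotated exon), Clu was highest, at 226 on average over the 4 libraries, above 99.0% of the genes tested. Clu encodes clusterin, a secreted chaperone glycoprotein and a major product of Sertoli cells, and it alone held 55.4% to 59.1% of the counts of the 10 genes in a library. Next came Aard, an established Sertoli cell marker, at 94.2 RPKM, and Cst12, a cystatin family gene, at 67.2 RPKM. Ctsl, which encodes the lysosomal and secreted protease cathepsin L, stood at 45.3 RPKM. Rhox5 followed at 21.0 RPKM. The 3 transcription factors lay close together, with Nr5a1 at 7.70, Wt1 at 6.82 and Gata4 at 5.43 RPKM. Fshr, the receptor for follicle-stimulating hormone, was low at 0.901 RPKM. Trf, the gene of the iron carrier transferrin, was lowest at 0.208 RPKM, above only 6.54% of the genes tested. Neighbours in this order whose ranges over the 4 libraries overlapped were Cst12 and Ctsl, Nr5a1 and Wt1, and Wt1 and Gata4. With the length of the longest transcript in place of all annotated exons, Wt1 stood above Nr5a1, at 13.7 against 10.9 RPKM. For Ctsl both lengths were nearly the same, at 6168 and 6489 nt, so this check cannot test its place. Whether its reads came from a shorter transcript was not tested, and its level per length is uncertain.

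**Figure D1:**
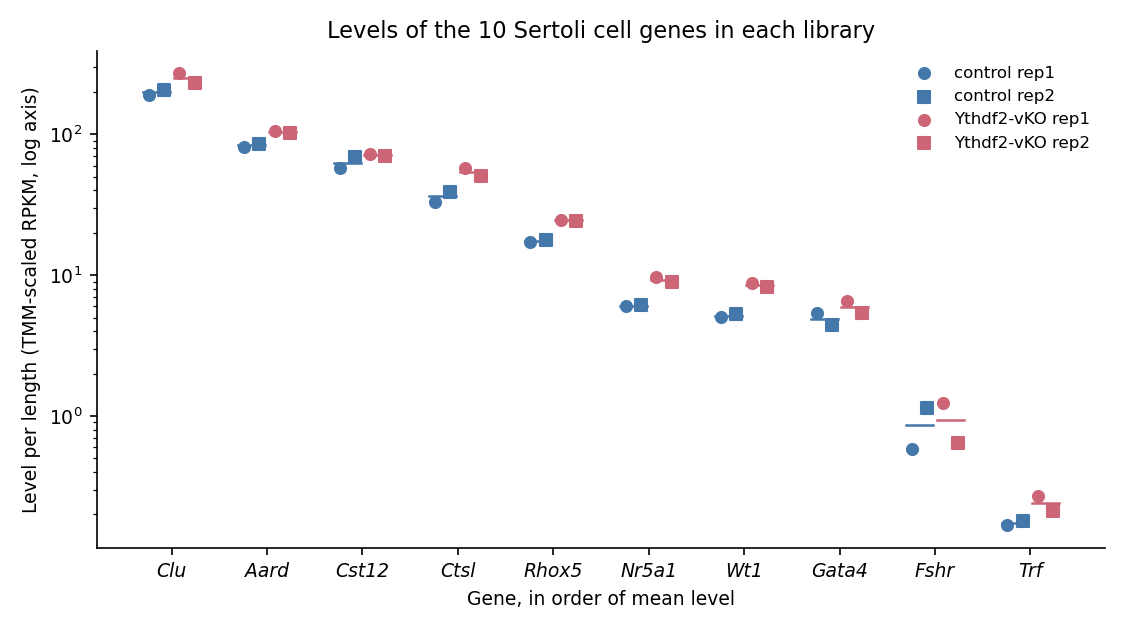
Level per length of each gene in each library, as TMM-scaled RPKM on a log axis, with genes in order of their mean level. Points are libraries, short lines the group means (n = 2). Clu lies at 192 to 272 RPKM and Trf at 0.168 to 0.270 RPKM, and only Fshr has overlapping groups.

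Trf is named for a Sertoli cell product, yet its row held 13 and 18 counts in control, against 24 and 19 in the vKO libraries. Its annotated exons share 2108 of 3320 nt with Gm20425, a gene model on the same strand that spans the locus and itself had 2 to 4 counts in a library. How the counting treated reads that fall on 2 genes is not given in the sources used here, so the level of Trf is uncertain. Ctsl shares 1742 nt of its 6489 exonic nt with Gm47123 on the opposite strand and 395 nt with the pseudogene Gm49230 on its own strand, and neither of these was analysed here. No exon of the other 8 genes overlapped an exon of another annotated gene.

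For a pair of genes, Fshr and Cst12, the start in RefSeq lay within 10 bases of the start in GENCODE M21. The 250 bases before it are shown because these were the only members with such a start. They were also the members with the smallest log2 fold changes. For 6 of the 10 genes the RefSeq promoters used here held no window. Of the other genes, Ctsl and Rhox5 had RefSeq starts 370 and 50234 bases away from the GENCODE start, and their windows are not shown. The sequences are from RefSeq on GRCm38.p6, at chr17:89200676-89200925 on the minus strand for Fshr and chr2:148789115-148789364 on the plus strand for Cst12, with capitals marking a match to a searched motif.
Fshr promoter: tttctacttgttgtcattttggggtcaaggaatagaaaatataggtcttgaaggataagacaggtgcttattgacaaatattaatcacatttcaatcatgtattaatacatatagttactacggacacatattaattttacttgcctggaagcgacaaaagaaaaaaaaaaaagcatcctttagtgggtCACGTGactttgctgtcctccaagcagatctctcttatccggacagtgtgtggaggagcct
Cst12 promoter: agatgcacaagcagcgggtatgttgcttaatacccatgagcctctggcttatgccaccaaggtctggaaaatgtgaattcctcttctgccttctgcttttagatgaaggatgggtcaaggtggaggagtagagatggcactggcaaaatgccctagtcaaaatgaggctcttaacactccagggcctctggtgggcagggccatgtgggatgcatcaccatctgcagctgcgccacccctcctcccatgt
The motifs were searched on both strands: AGATAA and TGATAA (bound by GATA factors), AAGGTCA (NR5A), AACAAT (SOX), TGTTCT (part of an androgen response element), CACGTG (a form of the E-box), GGGCGG (the GC box) and TATAAA. Other forms of the E-box were not searched. Only Fshr held a match to a searched motif, to CACGTG, beginning 61 bases before the start. This hexamer is present in 6.02% of the 32851 RefSeq promoter windows of the same length. A match describes the letters and not the binding of a factor.

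The comparison of the groups asked how these somatic genes differ between testes labelled Ythdf2-vKO and control. Wt1, a zinc-finger transcription factor required for the testis to form and for Sertoli cells to keep their identity, rose in the vKO libraries and was the only gene of the 10 to pass an adjusted p of 0.05. All 10 genes had a log2 fold change above 0, from 0.11 to 0.71, and in 9 of the 10 both vKO libraries lay above both control libraries. The median was 0.40, against 0.00 over all genes tested. Over all 21132 genes tested, 0.279% were called higher, 50.3% had a log2 fold change above 0, and the groups did not overlap in 22.7% in this direction and in 22.6% in the other. The members were chosen with earlier results in view, so the counts describe the list and are no independent evidence of its direction.

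Among the transcription factors, Wt1 (ENSMUSG00000016458, chromosome 2, 105126529 to 105173616, plus strand of GRCm38) had 31.3 and 32.8 CPM in control, against 54.2 and 50.7 CPM in the vKO libraries. The libraries of each group lay close together and the groups were well apart. Its log2 fold change of 0.71 (SE 0.13) had an adjusted p of 0.0418 (edgeR's quasi-likelihood F test, Benjamini-Hochberg method). Nr5a1 (ENSMUSG00000026751, chromosome 2, 38692656 to 38714542, minus strand) encodes steroidogenic factor 1, a nuclear receptor of Sertoli and Leydig cells. It had 25.5 and 26.0 CPM in control, against 41.0 and 38.1 CPM in the vKO libraries, a pattern much like that of Wt1. Its log2 fold change was 0.62 (SE 0.14), at an adjusted p of 0.0769 (edgeR) that missed the threshold. Gata4 (ENSMUSG00000021944, chromosome 14, 63198922 to 63271692, minus strand), a zinc-finger factor also of both cell types, had a smaller value. Its level was 21.0 and 17.2 CPM in control, against 25.4 and 21.1 CPM in the vKO libraries, so that the higher control and the lower vKO library were nearly level. Its log2 fold change was 0.29 (SE 0.16, edgeR adjusted p 0.473).

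The call of Wt1 was near the threshold, and without robust estimation its adjusted p was 0.0501 (edgeR). It was also lost without vKO replicate 1 and without vKO replicate 2, at edgeR adjusted p values of 0.338 and 0.0824, while its log2 fold change stayed at 0.66 and 0.76. The authors' deposited table gave adjusted p values under 0.05 to Wt1 (0.00287), Nr5a1 (0.0276) and Ctsl (0.0145), and to no other of the 10. In a DESeq2 Wald test on the same counts 0.542% of all 25265 genes were called higher. Of the 16448 genes given an adjusted p in the authors' deposited table, 0.833% were under 0.05 and higher. With edgeR and library totals alone, these 3 genes were called among 0.857% of all genes called higher, and without robust estimation none of the 10 was called among 0.237%.

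Of the secreted and lysosomal products, Ctsl (ENSMUSG00000021477, chromosome 13, 64359337 to 64370890, minus strand) had the largest log2 fold change. It stood at 216 and 255 CPM in control, against 377 and 329 CPM in the vKO libraries, with no overlap. The log2 fold change was 0.59 (SE 0.13), at an edgeR adjusted p of 0.0819 that missed the threshold. Clu (ENSMUSG00000022037, chromosome 14, 65968483 to 65981547, plus strand), the most abundant of the 10, had 658 and 715 CPM in control, against 934 and 801 CPM in the vKO libraries. The gap between the groups was smaller than the gap between the vKO libraries. Its log2 fold change was 0.34 (SE 0.12, edgeR adjusted p 0.243). Cst12 (ENSMUSG00000027443, chromosome 2, 148789361 to 148793546, plus strand) had 37.6 and 45.0 CPM in control, against 47.4 and 46.1 CPM in the vKO libraries. Control replicate 2 was nearly level with the vKO libraries, and only control replicate 1 stood lower. The log2 fold change of Cst12 was 0.18 (SE 0.14, edgeR adjusted p 0.626). Trf (ENSMUSG00000032554, chromosome 9, 103204001 to 103230444, minus strand) had 0.556 and 0.600 CPM in control, against 0.897 and 0.704 CPM in the vKO libraries. At 13 to 24 counts a library its log2 fold change of 0.46 had an SE of 0.51, and a difference of this size was not detectable at this depth (edgeR adjusted p 0.750).

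Aard (ENSMUSG00000068522, chromosome 15, 52040107 to 52045722, plus strand) had 110 and 116 CPM in control, against 144 and 138 CPM in the vKO libraries. The replicates of Aard differed by less than 5% in each group, so its modest difference stood clear of their spread. That gave a log2 fold change of 0.32 (SE 0.12), an unadjusted p of 0.0189 and an edgeR adjusted p of 0.250.

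Rhox5 and Fshr are linked to hormone action. Rhox5 (ENSMUSG00000095180, chromosome X, 37804842 to 37808876, plus strand), whose transcription in Sertoli cells depends on androgen, had 13.0 and 13.4 CPM in control, against 18.7 and 18.3 CPM in the vKO libraries. The replicates of Rhox5 differed by a factor of at most 1.04 in either group, and the groups were apart. The log2 fold change was 0.48 (SE 0.16, edgeR adjusted p 0.196). Fshr (ENSMUSG00000032937, chromosome 17, 88984952 to 89200675, minus strand) had 1.37 and 2.70 CPM in control, against 2.91 and 1.52 CPM in the vKO libraries. It was the only gene of the 10 whose groups overlapped, with a low and a high library in each. Its log2 fold change of 0.11 (SE 0.41, edgeR adjusted p 0.946) turned negative without control replicate 1, to -0.29, and without vKO replicate 1, to -0.43.

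**Figure D2:**
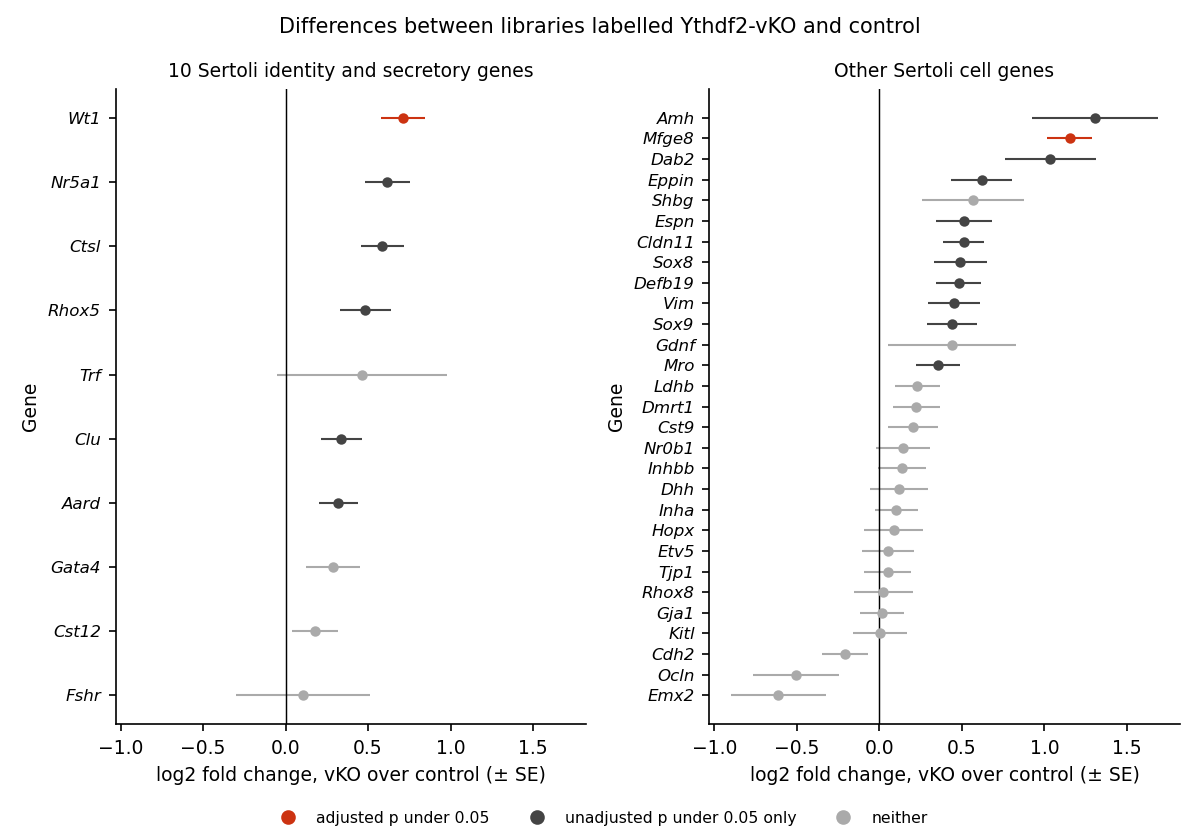
Log2 fold change of the vKO over the control libraries with its standard error, for the 10 genes on the left and for 29 of the 30 other Sertoli cell genes on the right. Wt1 and Mfge8 pass the adjusted p, and 5 further genes on the left and 10 on the right pass an unadjusted p of 0.05 only.

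Of the 10 genes, 6 had an unadjusted p under 0.05 in this direction (Wt1, Nr5a1, Ctsl, Rhox5, Clu and Aard) and none in the other, against 7.65% and 6.47% of all genes tested. An offset for GC content lowered the log2 fold change of the 7 genes with a transcript GC content of 51.1% to 59.2% and raised that of the 3 with 44.3% to 46.6%. Gata4 moved to 0.13, Clu to 0.21 and Nr5a1 to 0.41, while Ctsl moved to 0.64 with an edgeR adjusted p of 0.0319. Wt1 was at 0.63 with this offset and still passed, at an edgeR adjusted p of 0.0410. With the offset 0.374% of genes were called higher.

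A list of 30 other Sertoli cell genes was read beside the 10. Of these, 27 had a log2 fold change above 0 and 3 below it, with a median of 0.21, and 1 was called higher and none lower. The gene called was Mfge8, which encodes a bridging protein for the uptake of dying cells. It went from 52.7 ± 7.81 CPM in control to 117 ± 5.41 CPM in the vKO libraries (SD, n = 2 each), with a log2 fold change of 1.15 (SE 0.14) and an edgeR adjusted p of 0.00443. Without the threshold on adjusted p, 11 of the 30 had an unadjusted p under 0.05, all higher, against 7.65% of all genes tested in this direction. The largest differences among these, beside Mfge8, were in Amh, Dab2 and Eppin. Amh, the anti-Müllerian hormone gene of immature Sertoli cells, had 1.40 ± 0.563 and 3.43 ± 1.33 CPM, a log2 fold change of 1.31 (SE 0.38, edgeR adjusted p 0.163). Dab2, an endocytic adaptor, had a log2 fold change of 1.04 (SE 0.27) and Eppin, a protease inhibitor gene, of 0.62 (SE 0.19), with edgeR adjusted p values of 0.129 and 0.178.

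The most abundant of the 30 genes per length were Cst9 (134 RPKM), Defb19 (119 RPKM), Ldhb (67.3 RPKM) and Inha (50.5 RPKM). Cst9, a cystatin like Cst12, had a log2 fold change of 0.20 (SE 0.15), close to the 0.18 of Cst12. Defb19, a defensin gene, stood at 0.48 (SE 0.14), Ldhb at 0.23 (SE 0.14) and Inha, the inhibin alpha subunit gene, at 0.10 (SE 0.13). None of these 4 passed the adjusted p. Among these abundant Sertoli transcripts the log2 fold change ran from 0.10 for Inha to 0.59 for Ctsl, and no test compared the genes with each other.

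To read the 10 genes relative to other Sertoli cell genes, the libraries were also scaled to the summed counts of the 30 other Sertoli genes. That sum was 1017 and 1107 CPM in control, against 1335 and 1295 CPM in the vKO libraries. It includes Mfge8, the gene called higher, at a mean of 52.7 CPM in control and 117 CPM in the vKO libraries. Scaling without Mfge8 was not tried, so the values below depend in part on this gene. Whether the counts of all 30 genes came from Sertoli cells was not tested, so the sum is no measure of Sertoli cell content. Under this scaling 7 of the 10 genes had a log2 fold change above 0 and 3 (Gata4, Cst12 and Fshr) below it, with a median of 0.09, while the median of all genes moved to -0.31. Wt1 was at 0.40 (edgeR adjusted p 0.0832), Nr5a1 at 0.31 and Ctsl at 0.28, and none of the 10 was called, against 0.374% of all genes called higher. Clu and Aard were at 0.03 and 0.01.

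**Figure D3:**
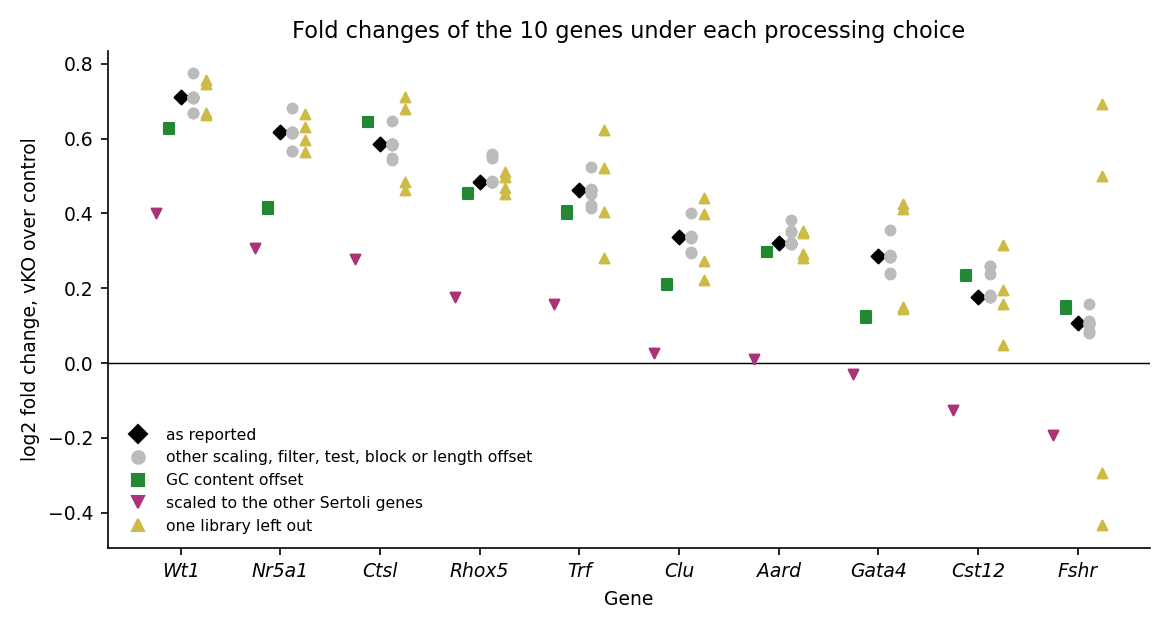
Log2 fold change of the vKO over the control libraries for each of the 10 genes under each processing choice, with the reported value as a black diamond. Wt1, Nr5a1, Ctsl, Rhox5, Trf, Clu and Aard stay above 0 under every choice plotted, and Fshr runs from -0.43 to 0.69 when a library is left out.

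Markers of other testis cell types were read beside the Sertoli genes. The 9 Leydig cell genes had a median log2 fold change of 0.39, from -0.02 to 0.71, with 8 above 0 and none called. Of the 9, 5 had an unadjusted p under 0.05 and 6 had groups without overlap, all higher. Over all genes tested these shares were 7.65% and 22.7%. The summed level of the 9 was 347 and 430 CPM in control, against 565 and 430 CPM in the vKO libraries. The most abundant were Cyp17a1, a steroidogenic enzyme gene (log2 fold change 0.19), and Insl3, a Leydig cell hormone gene (0.43). Since Gata4 and Nr5a1 are also known in Leydig cells, these values belong beside theirs, and their part in the result was not tested. Endothelial genes had a median of 0.43 (7 tested of 8, summed level 25.8 to 45.9 CPM), with Vwf at 0.43 and Cdh5 at 0.83.

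The control libraries stood apart from each other in macrophage genes, and the libraries of both groups did so in myoid genes. The 8 macrophage genes summed to 66.3 and 121 CPM in control, against 109 and 91.6 CPM in the vKO libraries (median log2 fold change 0.07, with Mrc1 at 0.02 and Lyz2 at 0.17). The 7 peritubular myoid genes summed to 262 and 301 CPM in control, against 302 and 252 CPM in the vKO libraries (median -0.05, with Actg2 at -0.15 and Myl9 at 0.34). Wt1 is also known in mesothelium. Of the 10 listed rete testis and mesothelium genes 6 were tested, at a summed 44.8 to 52.9 CPM over the 7 in the table (median -0.10, Epcam -0.05, Krt8 -0.56). Of the 6, 4 lay below 0, 2 of them without overlap. Krt19 (0.85) and Lrrn4 (0.38) lay above 0, both without overlap, at means of 0.476 and 2.47 CPM. Over all genes tested the groups did not overlap in 22.7% in the higher direction and in 22.6% in the lower. The part of mesothelial cells in the level of Wt1 was not tested. The mesothelial genes Msln and Upk3b and the rete gene Pax8 were not among the genes analysed, which had at least 10 counts over the 4 libraries.

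Germ cell lists were read in the same way. All 9 spermatogonia genes had a log2 fold change above 0, with a median of 0.28, 3 at an unadjusted p under 0.05 and 4 with groups that did not overlap. Their 2 most abundant genes, Dmrtb1 (0.02) and Uchl1 (0.10), were among the 3 with the smallest values. Of the 12 spermatocyte genes 10 were below 0, 3 of them at an unadjusted p under 0.05 and 7 without overlap, with a median of -0.18 (the 2 most abundant, Ldhc -0.19 and Hspa2 0.32). Of the 10 elongating spermatid genes 9 were below 0, 5 of them at an unadjusted p under 0.05 and 6 without overlap, with a median of -0.27 (Odf2 -0.18, Prm2 -0.29). The 8 round spermatid genes had a median of 0.06, with 5 above 0 (Spata16 -0.30, Tssk1 -0.02). Of the 8, 1 was lower at an unadjusted p under 0.05, and 2 higher and 1 lower had groups without overlap. Over all genes tested, 7.65% were higher and 6.47% lower at an unadjusted p under 0.05 in edgeR. The groups did not overlap in 22.7% in the higher direction and in 22.6% in the lower. None of these germ cell genes was called in edgeR. The elongating spermatid genes summed to 15503 and 12617 CPM in control, against 12090 and 12356 CPM in the vKO libraries, and the 10 Sertoli genes to 1115 and 1223 CPM in control, against 1646 and 1445 CPM in the vKO libraries. Control replicate 1 thus had the highest sum of the former and the lowest of the latter. The part of the germ cell levels in the Sertoli result was not tested. Without control replicate 1 the median log2 fold change of the 10 Sertoli genes was 0.41, and without control replicate 2 it was 0.52. It was 0.29 without vKO replicate 1 and 0.50 without vKO replicate 2.

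**Figure D4:**
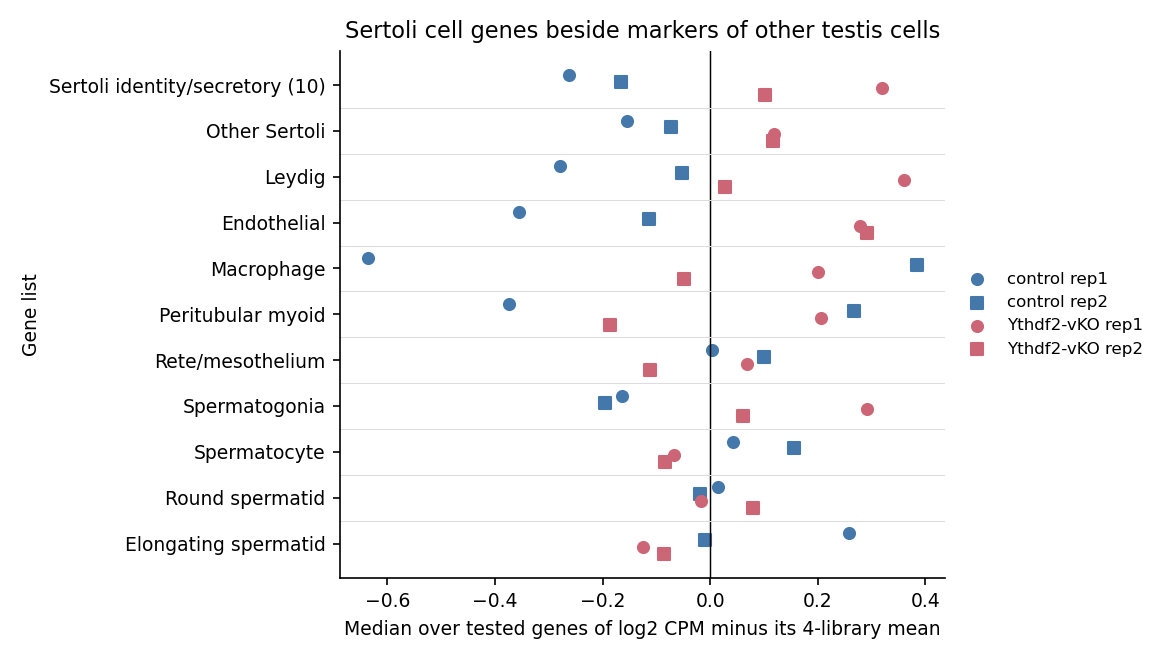
Median over the tested genes of each list of log2 CPM minus its 4-library mean, per library. The 10 Sertoli genes lie at -0.26 and -0.17 in control and at 0.32 and 0.10 in the vKO libraries, while the control libraries are far apart for macrophage genes, at -0.64 and 0.39.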

How the data were processed

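Whole-testis RNA was depleted of ribosomal RNA and made into directional libraries, per the labels' protocols. The submitters' processing notes name HISAT2 2.1.0 and HTSeq 0.6.1p1, while the genome build, annotation, strand setting and counting mode are not given in the sources used here. The authors deposited raw read counts per gene, and, per the file headers, a mean normalized signal (counts over size factors), each gene's log2 fold change and the standard error of it, the test statistic as a score, and p-values. Identifiers were matched to GENCODE M21 (GRCm38) for 25261 of 25265 genes. The build of the authors' counts may differ from it.

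Counts of all genes were fitted in R 4.3.3 by edgeR 4.0.16 and limma 3.58.1, after TMM scaling and filterByExpr, by genotype alone and a robust quasi-likelihood F test, two-sided. P-values were Benjamini-Hochberg adjusted over 21132 genes and called under 0.05. The SE is the absolute log2 fold change over the square root of F. The fit was tested on simulated data. Within groups, counts differed by more than sampling noise (chi-square per degree of freedom 21.17 and 8.415), so no libraries were merged. Reads carry no molecular identifiers.

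The members and lists were chosen with earlier results of these data known. The values of 1 gene of the other Sertoli list are not reported here. Named genes are the 10 members, called genes of the other Sertoli list, its 4 most abundant per length and its 4 with the largest change at an unadjusted p under 0.05, and the 2 most abundant tested genes of each other list. Also named are Ythdf2, genes whose exons overlap a member, and the 5 genes of at least 10 CPM nearest in profile. Krt19 and Lrrn4 are named as the tested rete testis and mesothelium genes above 0. Alternatives covered scaling, filters, estimation, DESeq2 1.42.0, a replicate block, GC and length offsets (lowess, span 0.3) and leaving out each library.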

Additional observations from a re-analysis of the deposited data

How the results depend on the processing

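The median log2 fold change of the 10 genes was 0.40 as reported. It moved by less than 0.119 under every alternative but scaling to the other Sertoli genes, where it was 0.0932. That 0.119 is the within-group SD of the median level of these same genes, so fits that left out a library could hardly exceed it. Over those fits the median ran from 0.286 without vKO replicate 1 to 0.517 without control replicate 2. The count of the 10 called higher was 1 as reported. It was 3 with library totals alone, 3 with DESeq2's Wald test, 2 with the GC content offset and 0 with scaling to the other Sertoli genes, without robust estimation and at an adjusted p under 0.01. None of the 10 was called lower under any of these. When each library was left out in turn, the count ran from 0 to 4, with fits that assume the lone library of a group to vary like the others. Genes with a negative value were Gata4 (-0.0305), Cst12 (-0.127) and Fshr (-0.192) under scaling to the other Sertoli genes, and Fshr without control replicate 1 (-0.294) and without vKO replicate 1 (-0.434). Over the fits that left out a library Fshr ran from -0.434 to 0.693.

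Over all genes, 59 were called higher and 24 lower. With library totals alone there were 181 and 37, with DESeq2's Wald test 137 and 80, and at an adjusted p under 0.01 there were 8 and 2. The lower calls numbered 15 without robust estimation. There were 79 higher and 60 lower with the GC content offset, and 79 higher and 2048 lower with scaling to the other Sertoli genes. Leaving out each library gave 30 to 1048 higher and 5 to 523 lower. Higher genes were 71.1% of the calls as reported, 83.0% with library totals alone, 56.8% with the GC content offset and 3.71% with scaling to the other Sertoli genes.

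The groups share replicate numbers, but the labels do not say what these mark. Deviations of same-numbered libraries from their group mean had a correlation of 0.0932. With 2 libraries a group both pairs give this same value by construction, so it cannot settle whether the libraries were paired. The replicate numbers were read as names and not as a pairing. In the fit with the replicate block 3 of the 10 genes (Wt1, Nr5a1, Ctsl) were called, against 2.97% of all genes called higher (627 higher, 390 lower). With the replicate block and the GC content offset 3 of the 10 were called (626 higher, 697 lower over all genes), and with the replicate block and the gene length offset 3 (290 higher, 231 lower). The cause of these changes was not tested. Counts of Trf were 13 to 24 a library. Replicates of Fshr, at 32 to 81 counts, differed 1.97-fold in control and 1.92-fold in the vKO libraries.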

Other observations

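Ratios between Sertoli genes within a library do not depend on a scaling factor that all its genes share. They do depend on offsets that differ between genes, and none was applied to these ratios. With the GC content offset the log2 fold change went from 0.59 to 0.64 for Ctsl and from 0.34 to 0.21 for Clu. It went from 0.62 to 0.41 for Nr5a1 and from 0.71 to 0.63 for Wt1. Nr5a1 over Wt1, as a ratio of counts, was 0.817 and 0.793 in control and 0.756 and 0.751 in the vKO libraries, so the proportion of these transcription factor genes was slightly lower in both vKO libraries. Wt1 over Gata4 was 1.49 and 1.90 in control and 2.13 and 2.40 in the vKO libraries, and Wt1 over Sox9, another Sertoli transcription factor gene, was 1.99 and 2.07 against 2.58 and 2.32. Among genes of secreted products, Ctsl over Clu was 0.328 and 0.357 in control and 0.404 and 0.411 in the vKO libraries, and Ctsl over Cst12 was 5.74 and 5.67 against 7.97 and 7.14. Clu over Cst12 overlapped between the groups, at 17.5 and 15.9 against 19.7 and 17.4. With 2 libraries against 2 an exact permutation test of such a ratio cannot give a p under 0.333, so no test was made, and the ratios were chosen after the levels were seen.

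The genes whose 4-library profile was nearest to the median profile of the 10 were Cox8a, Ece1, Slc25a44, Etfdh and Arhgap1, out of 10344 candidates with a mean of at least 10 CPM. Their root mean square difference from that profile was 0.0171 to 0.0250 on the log2 scale. Cox8a, a subunit gene of cytochrome c oxidase, had 12.5 and 13.2 CPM in control, against 18.6 and 16.5 CPM in the vKO libraries. None of the 5 is on the lists of Sertoli genes used here. A profile over 4 libraries is matched by many genes, and nothing is read from it about shared control.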
